A study of Homo sapiens with 27 samples.

Results

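The genes described here are the keratins KRT5, KRT7, KRT8, KRT14, KRT15, KRT17, KRT18 and KRT19 with the transcription factor gene TP63 and the collagen gene COL17A1, taken by symbol. They are 10 of the 23228 genes in the deposited table. RNA sequencing measured total RNA of ARCaPM-DR, DU145-DR and 22Rv1-DR, which are 3 human prostate cancer lines, each labelled Ch-CRPC, which is castration-resistant prostate cancer that also resists chemotherapy. In each line 3 libraries carried shGATA2a, 3 carried shGATA2b and 3 carried Control, a random hairpin, so that all 27 libraries expressed a short hairpin RNA. The comparison asks which transcripts change when GATA2, a zinc finger transcription factor, is knocked down. Each line stands for itself alone, and whether replicates were separate cultures is not stated in the labels, so that p-values here reflect only the spread among libraries, which may be technical.

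The prostate gland has a basal and a luminal epithelial layer, and the genes described here are the usual markers of the layers. Keratins form filaments as pairs of a type I and a type II chain: KRT5 pairs with KRT14 in basal cells, and KRT8 pairs with KRT18 in luminal cells and in most prostate adenocarcinomas. TP63 encodes p63, the transcription factor that maintains basal cells, and COL17A1 encodes the transmembrane collagen of hemidesmosomes, the junctions that fix basal cells to the basement membrane.

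The promoter sequences of COL17A1 and KRT8 are shown because COL17A1 rose in DU145-DR and ARCaPM-DR and KRT8 fell with shGATA2a in ARCaPM-DR, and because GATA factors bind a short motif that can be read from the letters. RefSeq promoters (build GRCh38.p14) were at hand for 4 of the 10 genes, TP63, COL17A1, KRT5 and KRT8, and the 250 bases before the annotated start were searched on both strands for 4 patterns of 6 letters. These were the pattern AGATAA, the pattern AGATAG, the pattern TGATAA and the pattern TGATAG. COL17A1 held 1 match, AGATAA on the gene's strand, in capitals below, 106 bases before the start and overlapping no other match. TP63, KRT5 and KRT8 held 0, and 22.3% of 35116 promoters of the same length held at least 1. Only 1 annotated start per gene was searched, so any other start of these genes is not covered. A match describes letters and is not a bound site, and its absence from this window says nothing about the factor. The sequences run 5′ to 3′ on the minus strand, at chr10:104085881-104086130 for COL17A1 and chr12:52926470-52926719 for KRT8.
COL17A1: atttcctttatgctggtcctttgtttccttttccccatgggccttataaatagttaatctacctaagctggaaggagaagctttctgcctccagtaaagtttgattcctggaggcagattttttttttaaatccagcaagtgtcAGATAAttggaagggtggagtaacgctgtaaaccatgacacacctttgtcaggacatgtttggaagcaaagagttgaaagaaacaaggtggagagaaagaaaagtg
KRT8: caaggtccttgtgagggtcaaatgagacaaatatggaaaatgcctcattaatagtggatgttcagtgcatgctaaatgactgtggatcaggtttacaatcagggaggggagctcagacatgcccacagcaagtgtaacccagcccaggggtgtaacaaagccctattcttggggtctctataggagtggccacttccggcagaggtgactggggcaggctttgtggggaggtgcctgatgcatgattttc

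Values are normalised read counts, that is reads per gene divided by 1 size factor per library, and whole reads could be recovered from them. Depth ranged from 3.44 to 19.40 M recovered reads per library, with a median of 12.87 M. The shallowest library was ARCaPM-DR shGATA2a replicate 3. GATA2, the hairpins' target, was lower in all 6 knockdown libraries than in all 3 controls of each line, with log2 differences of -2.56 in ARCaPM-DR, -1.85 in DU145-DR and -1.71 in 22Rv1-DR (adjusted p = 8.8e-05, 5.5e-05 and 0.0256, limma). Of its 9 values per line, 5 in DU145-DR and 7 in 22Rv1-DR came out as fractions of a read at a tolerance of 0.005 reads, which limits what GATA2 can say about the labels of those lines. Every value of the 10 genes described here was whole.

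The classical basal markers were at or near 0 in all 3 lines. KRT14, the type I partner of KRT5, had 1 read in all 27 libraries together. TP63 had 0 reads in the 9 ARCaPM-DR libraries. In DU145-DR, TP63 summed to 1 read with shGATA2a, 1 with shGATA2b and 3 in Control. In 22Rv1-DR, TP63 had 5, 2 and 1 reads in the shGATA2a libraries, 0, 0 and 1 with shGATA2b, and 1, 0 and 1 in Control. The 5 reads were in a single library, shGATA2a replicate 1.

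KRT5 had 0 reads in DU145-DR. In 22Rv1-DR it summed to 2 reads with shGATA2a, 0 with shGATA2b and 2 in Control. In ARCaPM-DR it had 1, 0 and 1 reads with shGATA2a, 5, 2 and 6 with shGATA2b, and 1, 0 and 2 in Control. These are a few reads per library at most, and with no filter on low values the ARCaPM-DR difference was 1.01 on the log2 scale (adjusted p = 0.253, limma). KRT17, a basal and stress-responsive keratin, summed to at most 5 reads in any group of 3 libraries. The 4 genes were below the filter of 10 normalised counts in at least 3 libraries in every line. Since 0 reads in a library allow up to 3 at the counting limit, which covers counting error only, these levels are at or near the counting limit of this depth and the genes are not shown to be absent.

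The lines kept the luminal pair. Compared per length, with each gene's level divided by the kilobases of its principal transcript in GENCODE, KRT8 stood first in DU145-DR controls with 2328 ± 670 normalised counts per kilobase and KRT18 second with 1029 ± 116 (SD, n = 3 each). In 22Rv1-DR controls KRT8 reached 10690 ± 1764 and KRT18 5283 ± 1538 per kilobase. In ARCaPM-DR controls KRT18 stood first with 3467 ± 1233 per kilobase and KRT8 second with 2744 ± 696, a gap within the spread of the libraries. KRT19, a type I keratin shared by basal and luminal cells, came next with 217 ± 145 per kilobase in ARCaPM-DR controls, 237 ± 175 in 22Rv1-DR and 30.0 ± 15.4 in DU145-DR. KRT8 and KRT18 are adjacent on chromosome 12 and their annotated spans overlap on opposite strands. They also have 50 and 68 annotated pseudogenes. Whether counting used strand, and how reads shared with these copies were assigned, are not stated in the sources used here.

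**Figure D1:**
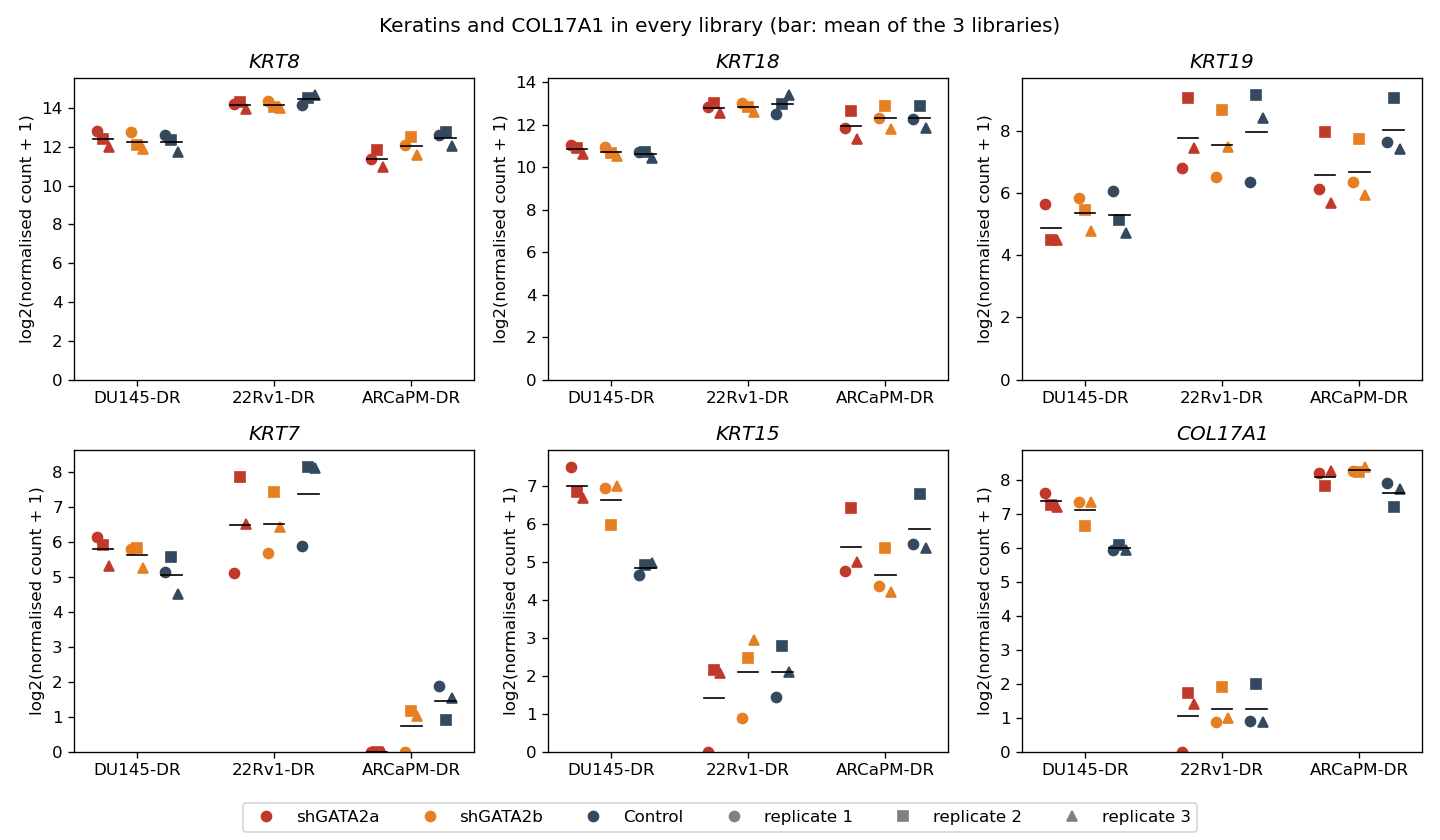
Level of each of the 6 measured members in every library, as log2(normalised count + 1), by line and hairpin, with points for libraries. KRT15 and COL17A1 in DU145-DR lie higher in all knockdown libraries than in the controls, and KRT7 in ARCaPM-DR and KRT15 and COL17A1 in 22Rv1-DR lie near 0.

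In the control libraries the lines carried different sets of these genes. Between lines 67.6% of genes were called for 22Rv1-DR minus DU145-DR, 56.1% for ARCaPM-DR minus DU145-DR and 67.1% for ARCaPM-DR minus 22Rv1-DR, so a call here is common. 22Rv1-DR controls were higher than DU145-DR controls for KRT8 by 2.23 (SE 0.26, adjusted p = 1.7e-05, limma), KRT18 by 2.32, KRT19 by 2.67 and KRT7, a simple-epithelial type II keratin, by 2.31 on the log2 scale. ARCaPM-DR controls were higher than DU145-DR controls for KRT18 by 1.70, KRT19 by 2.75 and COL17A1 by 1.62. KRT8 did not pass there (0.25, adjusted p = 0.454), nor did KRT15 (1.04, adjusted p = 0.0622). ARCaPM-DR controls were lower than 22Rv1-DR controls for KRT8 (-1.98, adjusted p = 4.2e-05), whereas KRT18 did not pass (-0.63, adjusted p = 0.0574). KRT18 passed there without 22Rv1-DR Control replicate 1 (-0.84, adjusted p = 0.0180) or ARCaPM-DR Control replicate 2 (-0.89, adjusted p = 0.0108), and KRT15 passed for ARCaPM-DR minus DU145-DR without 22Rv1-DR Control replicate 1 or 2 or ARCaPM-DR Control replicate 3 (adjusted p = 0.0431, 0.0462 and 0.0459).

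Some members were near 0 in a line, and limma called these too, with fitted values that depend on the pseudocount. For 22Rv1-DR minus DU145-DR controls they were KRT15 (-2.73) and COL17A1 (-4.74). For ARCaPM-DR minus DU145-DR it was KRT7 (-3.62). For ARCaPM-DR minus 22Rv1-DR they were KRT7 (-5.94), KRT15 (3.78) and COL17A1 (6.37). KRT7 had 2, 1 and 3 reads in ARCaPM-DR controls, against 68, 281 and 338 in 22Rv1-DR controls. COL17A1 had 1, 3 and 1 reads and KRT15, a type I keratin of basal cells, 2, 6 and 4 reads in 22Rv1-DR controls. COL17A1 in ARCaPM-DR controls stood at 242, 145 and 212 normalised counts, and in DU145-DR controls at 60.7, 67.0 and 60.5. COL17A1 was thus well above the counting limit in DU145-DR and ARCaPM-DR and at it in 22Rv1-DR. The 19 other luminal markers summed to 2890 to 3467 normalised counts in ARCaPM-DR controls, 800 to 858 in DU145-DR controls and 27430 to 35923 in 22Rv1-DR controls. Of the 19, 3 were at 0 in ARCaPM-DR controls and 3 in DU145-DR controls, KLK3, which encodes prostate-specific antigen, being among them in both, and 1 was at 0 in 22Rv1-DR controls.

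In DU145-DR the knockdown raised 2 of 6 tested members, both of the basal compartment, and lowered 0, where 16.7% of 13362 genes tested were called, 8.72% higher and 7.98% lower. KRT15 stood at 180, 115 and 102 normalised counts with shGATA2a, 124, 61.6 and 128 with shGATA2b, and 24.1, 29.2 and 30.3 in Control. COL17A1 stood at 197, 154 and 146 with shGATA2a, 164, 99.0 and 162 with shGATA2b, and 60.7, 67.0 and 60.5 in Control. For both genes every knockdown library was higher than every control, a separation shown by 18.7% of all genes in this line. KRT15 averaged 118 ± 38.5 in knockdown libraries (SD, n = 6) and 27.9 ± 3.28 in Control (SD, n = 3), a log2 difference of 1.98 (SE 0.24, adjusted p = 4.1e-04, limma). COL17A1 averaged 154 ± 32.0 in knockdown libraries (SD, n = 6) and 62.7 ± 3.70 in Control (SD, n = 3), a log2 difference of 1.25 (SE 0.17, adjusted p = 9.3e-04). In bulk RNA, more cells of a type and more RNA per cell cannot be told apart. Both calls held without any 1 of the 9 libraries, with adjusted p up to 0.00422 for KRT15 and 0.00849 for COL17A1.

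The hairpins, which share the control libraries, gave these values side by side. With shGATA2a the log2 difference was 2.17 for KRT15 and 1.38 for COL17A1 (adjusted p = 8.1e-04 and 0.0014, with 16.1% of genes called). With shGATA2b it was 1.80 for KRT15 and 1.13 for COL17A1 (adjusted p = 0.00457 and 0.00917, with 5.81% called). For shGATA2b minus shGATA2a limma called none of the members and 0% of genes, with 787 genes at an unadjusted p under 0.05, and KRT15 differed by -0.37 (SE 0.28).

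KRT7 stood at 69.4, 59.0 and 38.5 normalised counts with shGATA2a, 54.9, 55.5 and 37.1 with shGATA2b, and 33.9, 46.3 and 21.6 in Control of DU145-DR. The groups overlapped, but each knockdown library was above the control of its own replicate number. Both hairpins share these controls, and the share of all genes agreeing in every pair was not counted. The log2 difference was 0.64 (SE 0.26, adjusted p = 0.106, limma), and with the replicate number as a block the adjusted p was 0.00314, where 38.8% of genes were called. The luminal pair did not pass in DU145-DR. KRT8 averaged 5327 ± 1509 in knockdown libraries and 4950 ± 1424 in Control (log2 difference 0.10, SE 0.22, adjusted p = 0.793), and KRT18 averaged 1792 ± 255 in knockdown libraries and 1608 ± 180 in Control (0.15, SE 0.12, adjusted p = 0.403). With shGATA2a alone the block brought KRT18 past the threshold (0.23, adjusted p = 0.0189, with 38.1% of genes called). KRT19 was at 36.6 ± 15.2 in knockdown libraries and 41.7 ± 21.4 in Control (-0.17, adjusted p = 0.767).

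**Figure D2:**
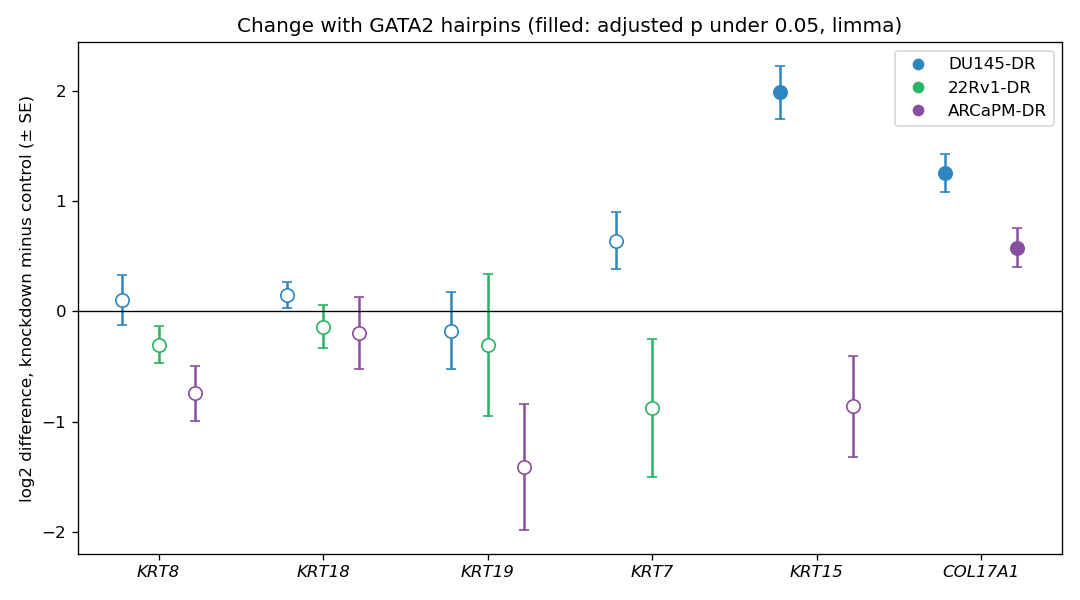
Log2 difference of each tested member between the 6 knockdown and the 3 control libraries, ± SE, by line, filled where the adjusted p is under 0.05. KRT15 and COL17A1 are filled in DU145-DR and COL17A1 in ARCaPM-DR, and KRT15 is at 1.98 in DU145-DR and -0.86 in ARCaPM-DR.

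In ARCaPM-DR the pattern was another one: 1 of 5 tested members, COL17A1, rose and 0 fell, where 18.5% of 13079 genes were called, 9.86% higher and 8.62% lower. In this line KRT8, KRT15 and KRT19 had lower values in every knockdown library than in the control of the same number. The pairs of both hairpins share these controls, and the share of all genes agreeing in every pair was not counted. COL17A1 stood at 293, 228 and 307 normalised counts with shGATA2a, 305, 298 and 330 with shGATA2b, and 242, 145 and 212 in Control. Of the knockdown libraries only shGATA2a replicate 2, at 228, was below the highest control. No member was fully separated between the 6 knockdown and the 3 control libraries in this line, as 21% of its genes were. The log2 difference was 0.58 (SE 0.18, adjusted p = 0.0466, limma; 8.5e-04 with the block). The unblocked call was close to the threshold and was lost without any 1 of 7 libraries, all but Control replicate 1 and shGATA2a replicate 2, with adjusted p from 0.0642 to 0.172.

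KRT8 stood at 2648, 3656 and 2002 normalised counts with shGATA2a, 4460, 5808 and 3082 with shGATA2b, and 6235, 7073 and 4195 in Control of ARCaPM-DR. All shGATA2a libraries were below all controls, and the shGATA2b libraries overlapped them. The share of all genes separated in this way for a single hairpin was not counted. The knockdown difference was -0.74 (SE 0.25, adjusted p = 0.0643, limma), and with the block the adjusted p was 4.9e-07. By hairpin it was -1.08 with shGATA2a (adjusted p = 0.0344, with 12.8% of genes called) and -0.40 with shGATA2b (adjusted p = 0.384, with 14.5% called). The shGATA2a call was lost without any 1 of 5 libraries, which were Control replicates 1 and 2, shGATA2a replicates 1 and 3 and shGATA2b replicate 1. Without replicate 2 of shGATA2a or of shGATA2b the knockdown difference passed (adjusted p = 0.0210 and 0.0381). KRT8 differed between hairpins by 0.68 for shGATA2b minus shGATA2a (adjusted p = 0.400, with 0.803% called), which passed with the block (adjusted p = 6.4e-05, with 12.5% called).

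KRT19 stood at 69.2, 250 and 50.5 normalised counts with shGATA2a, 80.9, 213 and 60.1 with shGATA2b, and 201, 534 and 171 in Control of ARCaPM-DR. The replicate 2 libraries were the highest in each group, and those of the hairpins lay above the controls 1 and 3. Within a replicate number the hairpin minus control difference ran from -1.74 to -1.09 on the log2 scale in 6 of 6 pairs. Unblocked it was -1.41 (SE 0.57, adjusted p = 0.116, limma) and it passed without shGATA2a replicate 2 (-1.76, adjusted p = 0.0195). With the block its SE was 0.14 and the adjusted p 2.6e-07.

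KRT15, which rose in DU145-DR, stood at 26.4, 84.6 and 31.1 with shGATA2a, 19.6, 40.1 and 17.6 with shGATA2b, and 43.6, 111 and 40.3 in Control of ARCaPM-DR. Replicate 2 was again the highest of each group, and all 6 pairs of 1 number were lower with a hairpin. The log2 difference was -0.86 (SE 0.46, adjusted p = 0.220; 0.00246 with the block). KRT18 averaged 4847 ± 1931 in knockdown libraries (SD, n = 6) and 5415 ± 1926 in Control (SD, n = 3), a difference of -0.20 (adjusted p = 0.710; 0.0481 with the block). KRT7 summed to 0 reads with shGATA2a, 2 with shGATA2b and 6 in Control, too few to test past the filter. With the block, 1 member rose and 4 fell in ARCaPM-DR, where 45% of all genes were called. By hairpin the block called 4 members with shGATA2a (39.9% of genes) and 4 with shGATA2b (40.4%).

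The shallowest library held 13 reads of KRT19 and 8 of KRT15. Without it the blocked test called COL17A1 (0.56, adjusted p = 3.8e-04), KRT8 (-0.75, 3.3e-09), KRT19 (-1.36, 1.4e-10) and KRT15 (-0.88, 9.9e-04), and KRT18 did not pass (-0.18, 0.103). The unblocked difference of COL17A1 without it was 0.53 (adjusted p = 0.0729).

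KRT8 and KRT18 form a filament pair, and their read ratio within a library does not depend on its size factor. In ARCaPM-DR there were 0.721, 0.562 and 0.769 KRT8 reads per KRT18 read with shGATA2a, 0.867, 0.762 and 0.871 with shGATA2b, and 1.25, 0.941 and 1.12 in Control. All 6 knockdown libraries were below the 3 controls. The share of all gene ratios separated in this way was not counted. In DU145-DR the ratio averaged 2.93 ± 0.47 with shGATA2a, 2.93 ± 0.52 with shGATA2b and 3.04 ± 0.60 in Control (SD, n = 3 each), and in 22Rv1-DR 2.55 ± 0.08 with shGATA2a, 2.46 ± 0.15 with shGATA2b and 2.82 ± 0.37 in Control. The groups of these 2 lines overlapped. This ratio was chosen after the values were seen, and it is given as a description with no test. A ratio shows that the genes changed unequally and not which of them changed.

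**Figure D3:**
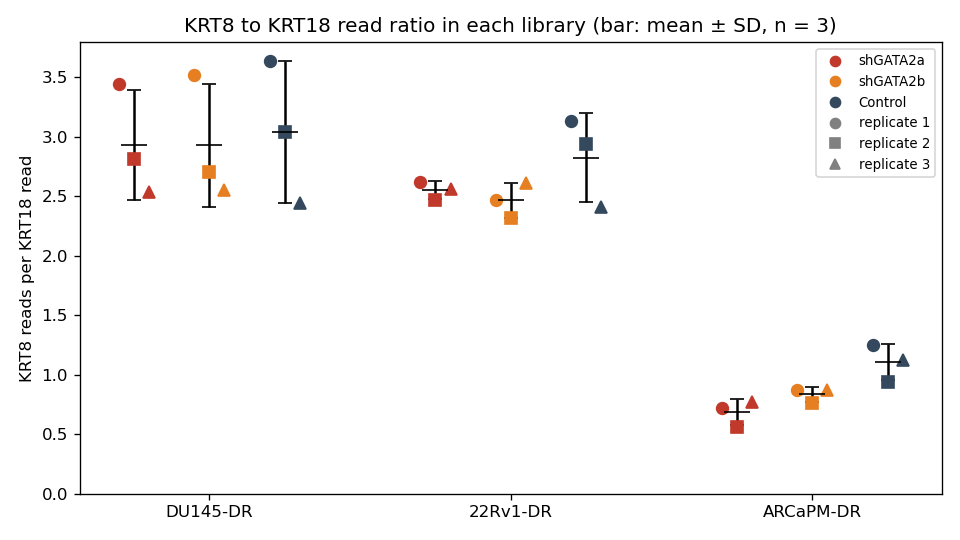
KRT8 reads per KRT18 read in each library, by line and hairpin, with bars at the mean ± SD (n = 3). In ARCaPM-DR the knockdown libraries run from 0.562 to 0.871 and the controls from 0.941 to 1.25.

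In 22Rv1-DR limma called none of 4 tested members (0.4% of 13757 genes were called, and 1379 genes had an unadjusted p under 0.05). KRT8 averaged 18358 ± 2309 in knockdown libraries (SD, n = 6) and 22726 ± 3751 in Control (SD, n = 3), a log2 difference of -0.30 (SE 0.17, adjusted p = 0.547). KRT18 differed by -0.14 (SE 0.20, adjusted p = 0.807). None of these passed with DESeq2, edgeR or the block either (1.21% of genes were called with the block). With shGATA2a alone 0% of genes were called in this line and with shGATA2b alone 0.00727%, with none of the members. No member was separated between knockdown and control libraries, as 6.94% of genes were. KRT7 stood at 33.8, 232 and 89.6 with shGATA2a, 50.04, 170 and 84.9 with shGATA2b, and 58.5, 279 and 275 in Control. It was lower in 6 of 6 pairs of 1 number, by -1.69 to -0.22. Both hairpins share these controls, and the share of all genes agreeing in every pair was not counted. The KRT7 difference of -0.88 (SE 0.63, limma adjusted p = 0.615, and 0.141 with the block) was within the spread of the replicates.

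KRT19 and KRT7 varied more with the replicate number than with the hairpin in 22Rv1-DR. KRT19 averaged 94.6 over the 3 libraries numbered 1, 502 over those numbered 2 and 232 over those numbered 3, and KRT7 averaged 47.4, 227 and 150. KRT8 averaged 19605, 20590 and 19247 over the same libraries. KRT19 in 22Rv1-DR was at 250 ± 178 in knockdown libraries (SD, n = 6) and 329 ± 243 in Control (SD, n = 3), with a log2 difference of -0.31 (SE 0.65, adjusted p = 0.875). In ARCaPM-DR the numbers also separated KRT19 (117, 332 and 93.8) and KRT15 (29.9, 78.7 and 29.7). What a number marks is not given in the labels.

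The knockdown effect differed between lines for 1 member. KRT15's log2 difference in ARCaPM-DR minus that in DU145-DR was -2.85 (SE 0.71, adjusted p = 0.0147, limma over all 27 libraries, with 7.13% of 15295 genes called). The call was lost without ARCaPM-DR Control replicate 2, the library with the highest KRT15 level in that line (-2.38, adjusted p = 0.0609), and with a pseudocount of 0.1 (-2.90, adjusted p = 0.152). With the block, KRT8 (-0.85) and KRT19 (-1.24) also passed for ARCaPM-DR minus DU145-DR (adjusted p = 0.00104 and 0.00262, with 20.5% called). KRT7 passed there too, but it had 0 to 3 reads in every ARCaPM-DR library and met the filter through the other lines, so its fitted value depends on the pseudocount and is not read as a difference. For 22Rv1-DR minus DU145-DR limma called none (1.09% of genes), and with the block KRT7 (-1.52), KRT15 (-2.34) and COL17A1 (-1.36) passed (adjusted p = 0.0251, 9.3e-04 and 0.00918, with 10.3% called). KRT15 and COL17A1 had under 10 reads in every 22Rv1-DR library, so their fitted values likewise depend on the pseudocount. For ARCaPM-DR minus 22Rv1-DR limma called none (3.39% of genes), and KRT19 passed with the block (-1.11, adjusted p = 0.00843, with 14.9% called). COL17A1's effect in ARCaPM-DR was not shown to differ from that in DU145-DR (-0.68, SE 0.46, adjusted p = 0.442).

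Hemidesmosome and basement membrane adhesion genes included 4 that rose and 0 that fell of 12 tested in DU145-DR. Their median log2 difference was 0.17 beside 0.00 over all genes, of which 16.7% were called, 8.72% higher and 7.98% lower. With the replicate block 6 rose and 3 fell in DU145-DR, where 38.8% of all genes were called. ITGA6, the integrin chain of hemidesmosomes, averaged 4279 ± 474 in knockdown libraries and 2384 ± 150 in Control (0.84, adjusted p = 3.3e-04, limma), and LAMB3, a laminin-332 chain, averaged 1124 ± 279 in knockdown libraries and 722 ± 143 in Control (0.62, adjusted p = 0.0310). ITGA3 and LAMB1 rose by 0.64 and 0.38. In ARCaPM-DR, where 18.5% of all genes were called, 2 of 11 rose and 1 fell, and 5 rose and 2 fell with the block (45% of genes called). DST (0.63) and LAMC1 (0.52) were higher, and ITGB4, the integrin partner of ITGA6, was lower at 8138 ± 2677 in knockdown libraries, against 10732 ± 1533 in Control (-0.46, adjusted p = 0.0470). In 22Rv1-DR 0 of 11 were called, with or without the block.

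Other basal markers of the prostate included 4 that rose and 0 that fell of 12 tested in DU145-DR, with or without the block. Of all genes in that line, 16.7% were called without the block and 38.8% with it. DKK3 (1.39), S100A2 (0.86), CAV1 (0.37) and CD44 (0.32) were higher. In ARCaPM-DR 5 of 12 rose and 1 fell, with FLRT3 (2.81), ITGA2 (0.82) and DKK3 (0.63) among the higher and BCL2 (-0.82) the lower, beside 18.5% of all genes called. With the block 6 rose and 3 fell there, where 45% of all genes were called. The median over the list was 0.11 in DU145-DR and 0.40 in ARCaPM-DR, and the 9 tested in 22Rv1-DR held no call. Of other luminal markers, CD24 (0.72) rose in DU145-DR as 1 of 7 tested, EPCAM (0.99) and STEAP2 (0.48) rose in ARCaPM-DR as 2 of 10, and DPP4 (-0.90) fell in 22Rv1-DR as 1 of 17, with values in it that were not whole reads. With the block 1 luminal marker rose and 1 fell in DU145-DR, 3 rose and 2 fell in ARCaPM-DR and 2 fell in 22Rv1-DR, where 1.21% of all genes were called. The p63 and p53 list held 1 gene that rose and 1 that fell of 11 tested in DU145-DR, JAG1 (0.90), a Notch ligand, and MDM2 (-0.39), the ubiquitin ligase of p53. In ARCaPM-DR they were JAG1 (0.84) and ITCH (-0.95), a ubiquitin ligase of p63, of 11 tested, and in 22Rv1-DR 0 of 13. With the block 2 genes of this list rose and 3 fell in DU145-DR, 1 rose and 4 fell in ARCaPM-DR and 1 fell in 22Rv1-DR.

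Of 23 other keratins, 4 passed the filter in ARCaPM-DR, 3 in DU145-DR and 2 in 22Rv1-DR. Of these, 2 rose and 0 fell in ARCaPM-DR, 0 rose and 1 fell in DU145-DR, and 0 were called in 22Rv1-DR. KRT80, a type II keratin of many epithelia, averaged 1757 ± 246 in knockdown libraries and 2254 ± 125 in Control of DU145-DR (-0.37, adjusted p = 0.0153, limma), and 1499 ± 465 in knockdown libraries and 677 ± 123 in Control of ARCaPM-DR (1.10, adjusted p = 0.00215). The block added 1 rise in DU145-DR. Desmosome genes, which anchor keratin filaments at cell junctions, were called in both directions. PERP (0.71) and DSG2 (0.54) rose and DSP (-0.39), the plakin that binds keratins, fell in ARCaPM-DR, of 10 tested. DSG2 rose by 0.32 in DU145-DR, 1 of its 10 tested having risen and 1 having fallen, and 0 of 10 were called in 22Rv1-DR. With the block 3 desmosome genes rose and 2 fell in DU145-DR, 2 rose and 4 fell in ARCaPM-DR and 1 fell in 22Rv1-DR. Other intermediate filament genes rose in DU145-DR as 3 of 11 (LMNB1 0.46, NEFM 0.52, NEFL 0.39) and fell in ARCaPM-DR as 2 of 6 (SYNM -0.99, LMNB2 -0.70), with 0 of 9 called in 22Rv1-DR. With the block 7 rose in DU145-DR, and 1 rose and 3 fell in ARCaPM-DR. Among keratin partners and organisers, FAM83H fell (-0.75) and YWHAH rose (0.46) in DU145-DR, and YWHAH (-0.45) and HSPB1 (-0.59) fell in ARCaPM-DR, of 10 tested in each, with 0 of 11 in 22Rv1-DR. With the block 2 partners rose and 1 fell in DU145-DR, and 3 rose and 4 fell in ARCaPM-DR. The counts of these lists stand beside 16.7% of all genes called in DU145-DR and 18.5% in ARCaPM-DR, and beside 38.8% and 45% with the block.

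Markers of other cell types were measured beside these genes. Their counts stand beside 16.7% of all genes called in DU145-DR and 18.5% in ARCaPM-DR. With the block these shares were 38.8% and 45%. Of the fibroblast list, COL1A1 fell in DU145-DR (-0.74, adjusted p = 0.0153, limma) and COL3A1 rose in ARCaPM-DR, at 8650 ± 3360 in knockdown libraries and 2198 ± 1027 in Control (2.01, adjusted p = 0.00878). The summed list in ARCaPM-DR ranged from 7675 to 14936 with shGATA2a, from 5691 to 11447 with shGATA2b and from 2368 to 4777 in Control, most of it COL3A1. Of its 9 genes, 3 were at 0 with shGATA2a, 4 with shGATA2b and 3 in Control of ARCaPM-DR, with FAP, PDGFRB and THY1 among them in each. With the block 2 fibroblast genes fell in DU145-DR and 2 rose in ARCaPM-DR. Endothelial genes rose as 2 of 3 tested in DU145-DR, where the summed list of 7 ranged from 61.7 to 81.2 with shGATA2a, from 60.4 to 64.2 with shGATA2b and from 41.7 to 62.0 in Control, with 1 of the 7 at 0 in each. In ARCaPM-DR 0 of 2 endothelial genes were called, and both fell with the block. The blood cell list held no call in any line, and 1 of its genes fell in ARCaPM-DR with the block. ENO2, a neuroendocrine marker, fell in ARCaPM-DR (-0.95, adjusted p = 0.0207), 1 of 4 tested, and with the block 1 such marker rose and 1 fell there and in DU145-DR. The part of these genes in the keratin values was not tested.

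The genes most alike in pattern were named by the correlation of log2(mean + 1) over the 9 group means among 13305 genes, given as a description over points that share libraries and depth. For KRT8 they were TADA1 (r = 0.997), AKR7A2 (0.994) and LONP1 (0.989). For KRT15 they were MTMR10 (0.989), ILK (0.988) and CCT6A (0.986), and for COL17A1 BARD1 (0.997), MASTL (0.996) and WDR35 (0.996). KRT15 group means ran from 2.23 to 132 and MTMR10 group means from 190 to 369, both lowest in 22Rv1-DR.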

How the data were processed

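The labels' protocols name the RNeasy Mini kit for RNA isolation and a standard Illumina library preparation. Build hg19 (GRCh37), TopHat2 (version 2.0.9) and Cufflinks (version 1.3.0) are named in the submitters' processing notes. The program that counted reads, its use of strand and the scaling tool are not stated in the sources used here. The authors deposited 1 table of signal values, 23228 genes by 27 libraries. Each library's values were whole multiples of a single step, so reads were recovered by dividing by it: 99.954% of 433407 values above 0 were whole within 0.005 reads, and 199 values in 58 genes were not. Replicate pairs differed by more than counting noise, with a chi-square per degree of freedom of 6.36 to 104.

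In R 4.3.3, limma 3.58.1 was fitted to log2(value + 1) of each line, using a mean-variance trend and the genes with at least 10 in at least 3 libraries. This scale understates the change of low genes. Knockdown was taken as the mean of both hairpins minus Control, and 1 fit of all 27 libraries tested differences of that effect between lines. Control libraries of the 3 lines were fitted together. Adjusted p-values are Benjamini-Hochberg over all genes tested in a contrast, with a threshold of 0.05; "rose", "fell" and "called" mean past it. No set test was run. The scripts were tested on simulated data.

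Replicate numbers were taken to pair libraries within a line. Over genes with a mean of at least 50, deviations from group means of same-numbered libraries correlated at 0.13 at the lowest in ARCaPM-DR, 0.26 in 22Rv1-DR and 0.39 in DU145-DR. Over all genes in the fit the lowest in ARCaPM-DR was 0.056. The pairing was read from the data because no label gives the meaning of a number, and blocked values are given where they change a member's call or a list's count.

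Alternatives were a pseudocount of 0.1, a filter of 50 or none, no trend, the replicate block, median of ratios scaling, quantile normalisation, edgeR (version 4.0.16) and DESeq2 (version 1.42.0) on recovered reads, leaving out the 58 genes, a joint fit of the 27 libraries and omitting each library in turn. A blocked fit without the shallowest library was added after the data were seen. The members and the gene lists were chosen with earlier results of these data known. From each list, up to 4 genes per line were named, those with the smallest adjusted p among genes past the threshold with a mean of at least 50; the KLK3, FAP, PDGFRB and THY1 levels were named after their values were seen. Lengths and gene overlaps are from GENCODE on GRCh38, not the authors' annotation.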

Additional observations from a re-analysis of the deposited data

Results flagged for a closer look

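The knockdown effect on KRT15 differed between 2 lines. In ARCaPM-DR KRT15 averaged 36.6 ± 24.9 normalised counts in knockdown libraries (SD, n = 6) and 65.1 ± 40.0 in Control (SD, n = 3), while in DU145-DR it averaged 118 ± 38.5 in knockdown libraries and 27.9 ± 3.28 in Control. The effect in ARCaPM-DR minus that in DU145-DR was -2.85 (SE 0.71, adjusted p = 0.0147, limma). It did not pass without ARCaPM-DR Control replicate 2 (-2.38, adjusted p = 0.0609) or with a pseudocount of 0.1 (-2.90, adjusted p = 0.152). All 6 same-number pairs were lower with a hairpin in ARCaPM-DR and all 6 were higher in DU145-DR. Both hairpins were set against the same controls, so the pairs are not independent. The share of all genes agreeing in this way was not counted. The cause was not tested.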

How the results depend on the processing

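With the replicate block the calls over all genes were 5184 in place of 2231 in DU145-DR, 166 in place of 55 in 22Rv1-DR and 5885 in place of 2418 in ARCaPM-DR. The block also moved the count of members called, given here with the blocked calls over all genes. The knockdown count went from 2 to 3 in DU145-DR (38.8%) and from 1 to 5 in ARCaPM-DR (45%). In DU145-DR shGATA2a went from 2 to 4 (38.1%) and shGATA2b from 2 to 3 (3515 of 13362 genes). In ARCaPM-DR shGATA2a went from 1 to 4 (39.9%) and shGATA2b from 0 to 4 (40.4%). There, shGATA2b minus shGATA2a went from 0 to 3 (12.5%). Between lines, the effect of 22Rv1-DR minus DU145-DR went from 0 to 3 (10.3%). These include KRT15 and COL17A1, with at most 7 and 3 reads in any 22Rv1-DR library. ARCaPM-DR minus DU145-DR went from 1 to 4, KRT7 at 0 to 3 reads included (20.5%). ARCaPM-DR minus 22Rv1-DR went from 0 to 1 (14.9%). With the block and without the shallowest library, ARCaPM-DR gave 4 members and 5788 genes. Controls of different lines did not pair by number (lowest correlation -0.12), and a block there brought KRT15 in ARCaPM-DR minus DU145-DR past the threshold (adjusted p = 0.0289).

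The single ARCaPM-DR call, COL17A1, was lost in 5 of the other settings. Among them, no filter, median of ratios scaling, no trend and edgeR called 0 members. In the remaining setting COL17A1 was not among the members called. DESeq2 called 2 members in ARCaPM-DR, where it called 3135 of 13079 genes. Quantile normalisation called 2 members for the effect of 22Rv1-DR minus DU145-DR, beside 191 of 15295 genes. In 22Rv1-DR, calls over all genes were 3 with no trend, 191 with DESeq2, 1 without the 58 genes and 224 in 1 fit of all libraries, and DU145-DR had 650 in that fit. KRT15 and COL17A1 in DU145-DR stayed past the threshold in all 11 alternatives other than leaving out a library. KRT19 in ARCaPM-DR minus 22Rv1-DR controls was 0.07, and turned to -0.073 with edgeR and -0.10 with DESeq2. Of 525 single-gene values under other settings, 492 kept direction and side of the threshold, 6 lost it, 25 gained it and 2 changed sign. These counts leave out the fits without a library.

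Leaving out each library in turn gave 857 to 2440 calls over all genes in DU145-DR (857 without Control replicate 2 and 939 without Control replicate 1), 0 to 37 in 22Rv1-DR and 1179 to 3545 in ARCaPM-DR (1179 without Control replicate 1, 1351 without Control replicate 3, and 1522 and 1588 without shGATA2a or shGATA2b replicate 1). Members called ran from 0 to 3 for the ARCaPM-DR knockdown, 0 to 2 for shGATA2a and 0 to 1 for shGATA2b there (1 without Control replicate 1 or without shGATA2a replicate 2 or 3), and 0 to 1 for the effect of ARCaPM-DR minus DU145-DR. The sign of members that had not passed turned in DU145-DR for KRT8 (-0.14 to 0.29) and KRT19 (-0.47 to 0.21), in 22Rv1-DR for KRT18 (-0.36 to 0.071) and KRT19 (-1.11 to 0.28) and in ARCaPM-DR for KRT18 (-0.44 to 0.068). It also turned for the effects of KRT19 in 22Rv1-DR minus DU145-DR (-0.93 to 0.45), KRT7 (-0.57 to 0.55) and KRT18 (-0.30 to 0.21) in ARCaPM-DR minus 22Rv1-DR, and for KRT19 in ARCaPM-DR minus 22Rv1-DR controls (-0.73 to 0.66). The cause of these changes was not tested. KRT5, KRT14, KRT17 and TP63 in all lines were read in single figures or not at all. So were KRT7 in ARCaPM-DR and KRT15 and COL17A1 in 22Rv1-DR. This limits what can be said of them at this depth.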
